A study of Mus musculus with 7 samples.

Results

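Alpha and beta tubulins pair as a dimer, and dimers add to the ends of microtubules, the tracks and struts of growing axons and dendrites. Each is encoded by several genes, the isotypes, whose proteins are alike along most of their length and differ mainly in a short acidic tail at the carboxyl end. Enzymes add or remove chains of glutamate, a terminal tyrosine or an acetyl group on tubulin, and the tail is where motors and microtubule-associated proteins meet the lattice. Developing neurons use a particular mix of isotypes, and genetic changes in several of them, including TUBA1A, TUBB2B, TUBB3 and TUBB5 (TUBB), disturb cortical development in people.

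The 10 isotypes described here are 3 alpha tubulins (Tuba1a, Tuba1b and Tuba1c) and 7 beta tubulins (Tubb2a, Tubb2b, Tubb3, Tubb4a, Tubb4b, Tubb5 and Tubb6), of 26286 genes counted. They were chosen by gene name as a family, and the family was selected on the log2 fold changes and calls between genotypes in these same libraries, which were already known, so their levels by genotype, fold changes and calls are given as a description and support nothing further. All 10 passed the filter on low counts and are among the 13681 genes tested.

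Messenger RNA was sequenced from cortical neurons of mouse embryos of the C57BL/6 strain at E16.5, all labelled male: 3 wild type mice and 4 KAT7 mutant mice, 1 library each. KAT7 is a histone acetyltransferase. The labels used here do not say which allele the mutants carried, whether a Cre driver was involved or how the neurons were obtained. Wild type libraries held 8354636 to 8813060 counts and mutant libraries 8272487 to 8730911. Kat7 had 848 to 869 counts in wild type and 3 to 10 in mutant libraries, so the genotype labels and the targeted gene go together. Libraries of a genotype differed from each other by more than counting noise (chi-square per gene 2.03 to 3.63), and none was treated as a copy of another.

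The coding ends of the isotypes show what the family shares and where it differs. Tubulin messages are regulated by their own translation: the first 4 amino acids of the growing chain are read on the ribosome by TTC5 when free dimer is plentiful. The first 12 coding bases were the same in the 3 alpha isotypes, and those of the beta isotypes shown differed from them. Tubb3 and Tubb4b shared 1 start, and the others differed from each other by a few bases. The base differences among the beta starts shown leave the 4 encoded amino acids the same.
Tuba1a, Tuba1b and Tuba1c start: atgcgtgagtgc
Tubb2a start: atgcgcgagatc
Tubb2b start: atgcgagagatc
Tubb3 and Tubb4b start: atgagggagatc
Tubb4a start: atgcgggaaatc
Tubb5 start: atgagggaaatc
The last 63 coding bases encode the tail, 20 codons and the stop, and are shown because isotypes differ mainly in this part. Capitals mark in-frame glutamate codons (GAA or GAG), the residues to which side chains of glutamate can be added. Sequences are those of GENCODE M21 transcripts (GRCm38), 5′ to 3′ on the sense strand. Tuba4a, an alpha tubulin outside the group of 10, is shown for its last codon.
Tuba4a tail: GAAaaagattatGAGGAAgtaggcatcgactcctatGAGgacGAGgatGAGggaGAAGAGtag
Tubb2a tail: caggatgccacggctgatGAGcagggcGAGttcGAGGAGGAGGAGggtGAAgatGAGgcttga
Tubb2b tail: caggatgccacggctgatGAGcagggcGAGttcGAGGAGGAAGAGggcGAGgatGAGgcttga
Tubb3 tail: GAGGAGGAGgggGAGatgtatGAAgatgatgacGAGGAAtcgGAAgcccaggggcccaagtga
Tubb4a tail: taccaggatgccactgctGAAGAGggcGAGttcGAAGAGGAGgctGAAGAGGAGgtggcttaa
Tubb4b tail: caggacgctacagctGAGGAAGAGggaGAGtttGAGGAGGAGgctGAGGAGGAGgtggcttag
Tubb5 tail: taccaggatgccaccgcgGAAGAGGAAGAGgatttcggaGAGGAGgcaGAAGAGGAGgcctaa

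The tail held 10 glutamate codons in Tubb4b and 8 or 9 in each of the other genes shown. Most alpha tubulins are made with a final tyrosine, the residue that vasohibins remove and tubulin tyrosine ligase puts back, whereas the last codon of Tuba4a is gag, a glutamate codon. The tails of Tubb2a and Tubb2b differed at 3 bases, none of which changes an encoded amino acid, so this pair has the same tail. Over whole coding sequences, Tuba1a was identical to Tuba1b at 98.3% of aligned bases and to Tuba1c at 97.1%, and Tubb2a to Tubb2b at 96.5%. Every other pair of beta isotypes matched at 80.2% to 85.7%, Tubb4a and Tubb4b, despite their names, at 83.2%. Tails were compared position by position back from the stop codon, with no gaps. The tail of Tubb3 so differed from that of each other beta isotype at 35 to 37 bases, and those of Tubb4a and Tubb4b at 15. These coding sequences differ in length, so the counts can include shifts of position as well as substitutions.

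This likeness bears on what a read count can mean for each gene. No source used here gives the read length or the treatment of reads with several matches, and 50 and 100 bases were taken as examples. Of 50-base stretches of the transcript, 83.1% in Tuba1b, 75.5% in Tuba1a and 61.0% in Tuba1c also occurred in a transcript of another gene, processed pseudogenes included. The share was 55.5% for Tubb4b, 49.6% for Tubb2a and 39.3% for Tubb2b. Tubb3 and Tubb6 shared 0% and Tubb4a and Tubb5 under 1% (0.184% and 0.115%), so the reads of these 4 isotypes could be assigned to 1 gene along nearly their whole transcripts. At 100 bases the shares were 73.0% for Tuba1b and 30.6% for Tubb4b. Counts were also given to pseudogene rows: Gm6682, which shares 30.4% of Tuba1a's 50-base stretches and 34.7% of Tuba1b's, had 1499 ± 53.1 CPM (SD, n = 3; CPM are read counts scaled to a common library total) in wild type, more than Tuba1b itself. Tubb2a-ps2 had 455 ± 19.2 CPM (SD, n = 3). The split of counts among Tuba1a, Tuba1b, Tuba1c and Gm6682, and between Tubb2a and Tubb2b, is therefore uncertain. The pseudogenes that share stretches with Tubb4b were not rows of the count table analysed, and how their reads were counted is unknown.

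**Figure D1:**
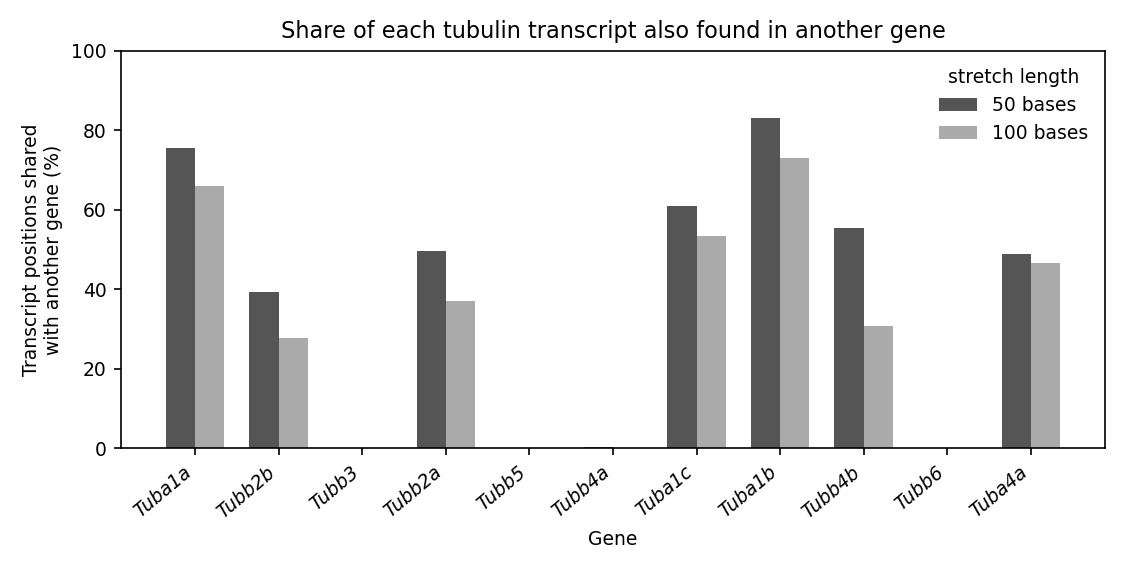
Share of the start positions in each tubulin transcript (vertical axis, percent) whose next 50 (dark bars) or 100 (light bars) bases also occur in another gene's transcript, for the 10 isotypes and Tuba4a (horizontal axis). Tuba1b is highest at 83.1% for 50 bases, and Tubb3 and Tubb6 are at 0%.

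Tubulin was a large part of these transcriptomes. The 10 isotypes took 1.35% ± 0.0320 (SD, n = 3) of all counts in wild type and 1.25% ± 0.0403 (SD, n = 4) in KAT7 mutant. Divided by gene length, as CPM per kilobase, the wild type order began with Tuba1a, the main alpha isotype of developing neurons, at 3172 ± 111 (SD, n = 3), second among all tested genes. Next came Tubb2b at 1172 ± 3.13, Tubb3, the beta isotype used as a marker of neurons, at 1137 ± 34.9, and Tubb2a at 1093 ± 20.9. Tubb5, an isotype also abundant in dividing progenitors, had 464 ± 18.3 and Tubb4a, an isotype of nervous tissue, 283 ± 13.0. Tuba1c (127 ± 5.72), Tuba1b (89.0 ± 8.38) and Tubb4b (84.4 ± 1.96), found in many cell types, were lower, and Tubb6, a minor isotype, was at 8.21 ± 0.437. Among neighbours in this order, the wild type ranges of Tubb2b and Tubb3 overlapped, as did those of Tuba1b and Tubb4b, so these pairs do not differ beyond their spread. The other neighbours did not overlap in CPM per kilobase, Tubb3 and Tubb2a by a margin under 1, although for the isotypes with shared stretches the order rests on how reads were assigned.

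**Figure D2:**
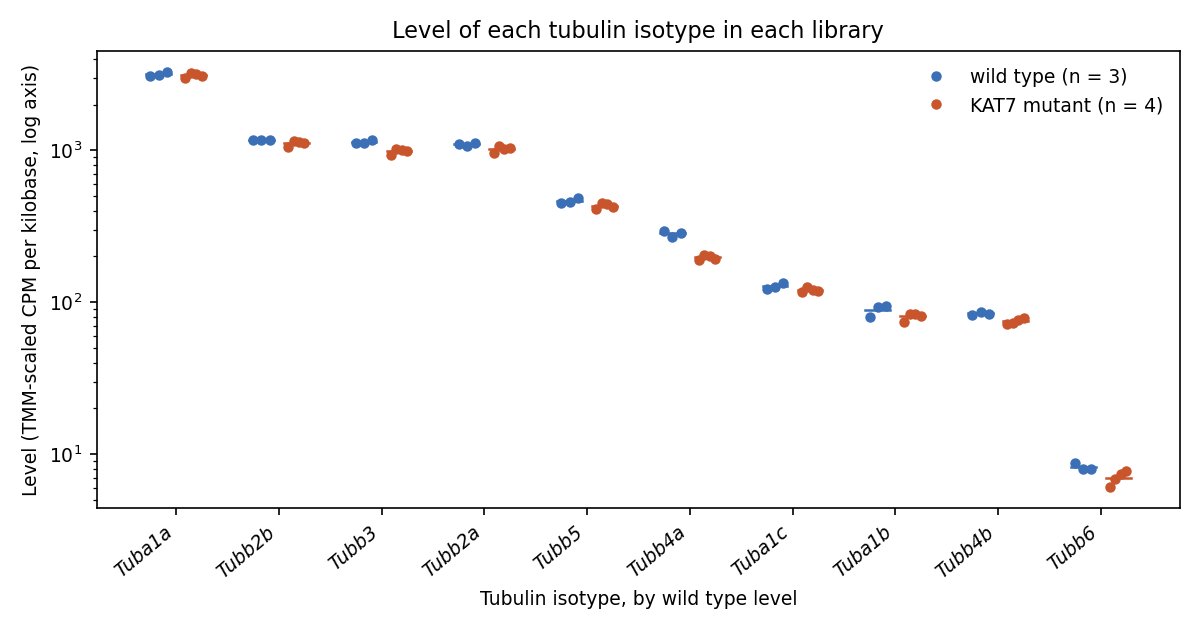
Level of each isotype in TMM-scaled CPM per kilobase of gene length (vertical log axis), with isotypes in the order of their wild type level. Points are libraries and short lines group means, for 3 wild type and 4 KAT7 mutant mice. Tuba1a averaged 3172 in wild type and Tubb6 8.21, and the Tubb4a points of the genotypes lie clearly apart.

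KAT7 mutant neurons had less Tubb4a, Tubb3 and Tubb4b mRNA, and the other 7 isotypes lay at or a little below the wild type level without being called. Tubb4a showed the largest difference, at 69.7% of the wild type mean, with Tubb3 at 86.5% and Tubb4b at 88.6%. Tuba1a, the most abundant isotype, was at 98.5%. Called here means an adjusted p under 0.05 in edgeR's quasi-likelihood test with Benjamini-Hochberg adjustment over all tested genes. In bulk RNA, fewer cells of a type and less RNA per cell cannot be told apart.

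Tubb4a had 656, 599 and 638 CPM in wild type replicates 1 to 3 and 424, 456, 449 and 429.9 CPM in KAT7 mutant replicates 1 to 4. The genotypes were far apart, with the highest mutant library well under the lowest wild type library. Its log2 fold change was -0.52 ± 0.05 (SE), and its transcript shares almost no 50-base stretch with other genes. It was called in each of the 16 alternatives, with a log2 fold change of -0.56 to -0.50.

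For Tubb3 the wild type libraries had 1914, 1937 and 2028 CPM and the mutant libraries 1614, 1748, 1720.5 and 1696 CPM. Again the groups did not overlap, but the gap was a smaller part of the level than for Tubb4a. The log2 fold change was -0.21 ± 0.05 (SE), and -0.23 to -0.18 in the 16 alternatives, all of which called it. Of 6 neuronal markers tested (Rbfox3, Map2, Snap25, Dcx, Neurod6 and Neurod2), 2 were called higher and 0 lower. Among all tested genes 13.1% were called higher and 15.8% lower. The summed levels of the 6 markers were 7170 to 7760 CPM in wild type and 7458 to 7990.0 CPM in mutant libraries. The largest parts of this sum were Dcx and Map2, with wild type means of 2928 and 1925 CPM. Both are also on the list of microtubule-associated proteins below. The part of neuron content in the Tubb3 values was not tested.

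Tubb4b, the third isotype called, had 132, 138 and 134 CPM in wild type and 114, 116, 122 and 125 CPM in the mutant. All mutant libraries were below all wild type libraries, with a gap narrower than the spread of the mutant values. The log2 fold change was -0.18 ± 0.05 (SE). Without wild type replicate 2 it was -0.16 and no longer called. Its 50-base stretches are shared mainly with the pseudogenes Tubb4b-ps1 (43.6%) and Tubb4b-ps2 (18.2%), and their part in this count was not tested.

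Tuba1a counts were nearly level between genotypes. It had 4940.2, 4951 and 5251 CPM in wild type and 4728, 5174, 5074 and 4919 CPM in the mutant, and the groups overlapped over most of their range. Its log2 fold change was -0.02 ± 0.05 (SE), and it was slightly above 0 when wild type replicate 3 (0.0085) or mutant replicate 1 (0.00018) was left out. Tuba1b and Tuba1c, whose mutant means were 90.4% and 94.7% of wild type, also overlapped. Tuba1b was called lower only in the fit without wild type replicate 1 (-0.23). When Tuba1a, Tuba1b and Tuba1c were summed to avoid the split of reads, the log2 fold change was -0.027 ± 0.05 (SE), and with the pseudogene rows Gm6682 and Gm5620 added it was -0.031 ± 0.05 (SE), a sum chosen after seeing the data.

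The remaining beta isotypes were all a little lower and not called. Tubb2b had 2254, 2259 and 2247 CPM in wild type, an unusually tight group, and 2034, 2221, 2187 and 2147 CPM in the mutant. For Tubb2a the values were 1764, 1719 and 1784 CPM against 1549, 1718, 1643 and 1657 CPM. In both, the mutant libraries lay below the wild type ones, Tubb2a by a margin of about 1 CPM between the closest libraries. Their log2 fold changes were -0.07 ± 0.04 and -0.10 ± 0.05 (SE), and the sum of both genes gave -0.08 ± 0.05 (SE), not called. Tubb5 was at -0.10 ± 0.05 (SE) and Tubb6, with only 90 to 128 counts per library, at -0.23 ± 0.12 (SE), so the latter has the widest error of the family.

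In all, 3 of the 10 isotypes were called lower and 0 higher, beside 15.8% of all tested genes called lower and 13.1% higher. Among the 2531 tested genes with a mean of at least 100 CPM, which include 9 of the isotypes, 12.6% were called lower and 23.6% higher. All 10 fold changes were below 0, as were 49.5% of those of all tested genes. In 7 of the 10 every mutant library was below every wild type library, a pattern that 18.8% of tested genes showed. The median log2 fold change was -0.12 over the isotypes (-0.08 over the alpha and -0.18 over the beta isotypes) and 0.0025 over all tested genes. Because the family was chosen with this comparison known, nothing is read from these counts.

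**Figure D3:**
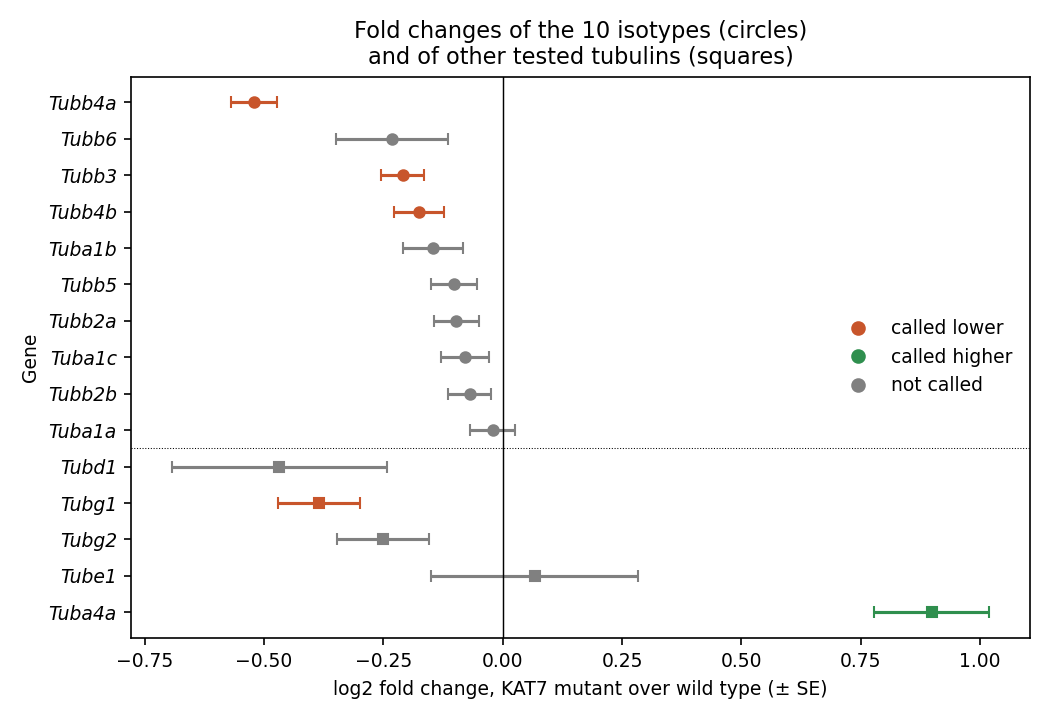
Log2 fold change of KAT7 mutant over wild type with its SE (horizontal axis) for the 10 isotypes (circles, above the dotted line) and 5 other tested tubulin genes (squares); color gives the call. Tubb4a, at -0.52, is the lowest of the isotypes, and Tuba4a, at 0.90, lies apart on the other side of 0.

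The make-up of the beta pool differed between genotypes most of all in the shares of Tubb4a and Tubb2b, and the alpha pool differed less. Levels per length were summed over the beta isotypes and each isotype given as a share. Tubb4a took 6.42% to 6.98% of the beta pool in wild type and 5.03% to 5.24% in the mutant. Tubb3 took 26.3% to 27.2% and 25.5% to 25.7%. Tubb2b (27.1% to 28.1%, then 29.1% to 29.3%) and Tubb2a (25.5% to 26.0%, then 26.3% to 26.9%) took more in the mutant. Shares add to a fixed total, so they do not move independently of each other. None of these 4 shares overlapped between genotypes, and the shares of Tubb4b, Tubb5 and Tubb6 did. Tubb3 was above Tubb2a in CPM per kilobase in each wild type library and below it in each mutant library, an order that counts on the reads given to Tubb2a rather than Tubb2b. In the alpha pool Tuba1a took 93.4% to 93.9% in wild type and 94.0% in each mutant library, and Tuba1c took 3.69% to 3.78% and 3.54% to 3.69%. Neither share overlapped between genotypes, but the gaps were narrow, and the share of Tuba1b did overlap. All 3 alpha shares rest on the uncertain split of reads among the Tuba1 genes and Gm6682.

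Summed over isotypes, the beta pool was 4242 ± 68.9 CPM per kilobase (SD, n = 3) in wild type and 3834 ± 142 (SD, n = 4) in the mutant, a log2 ratio of -0.15. Its ranges, 4189 to 4320.0 and 3639 to 3973, did not overlap. The alpha pool had 3388 ± 121 and 3327 ± 130.1, a log2 ratio of -0.026 with overlapping ranges, which was 0.0039 without wild type replicate 3. The ratio of alpha to beta was 0.784 to 0.817 in wild type and 0.858 to 0.873 in mutant libraries. Both pools leave out the pseudogene rows. With those rows added, a sum chosen after seeing the data, Tuba1 counts in wild type went from 5437 to 6940 CPM. Tubb2 counts went from 4009 to 4464 CPM. The pool levels and their ratio therefore depend on how shared reads were assigned.

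**Figure D4:**
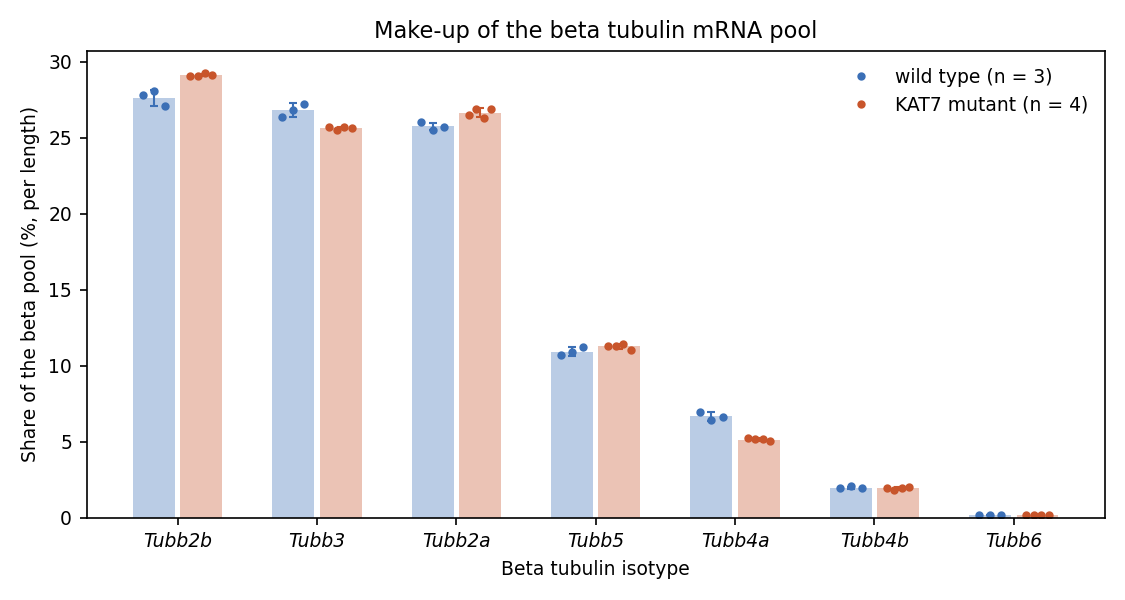
Share of each beta isotype in the summed beta level per length (vertical axis, percent) in wild type and KAT7 mutant. Bars are group means, error bars SD and points libraries (3 and 4 mice); Tubb4a falls from a mean of 6.68% to 5.15%, and the shares of Tubb2a and Tubb2b are higher in the mutant.

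Libraries of a genotype also differed together across the family. KAT7 mutant replicate 1 was below its genotype mean for all 10 isotypes, with a median deviation of -0.07 on the log2 CPM scale, and replicate 3 was above it for all 10 (0.03). In wild type, replicate 3 was above the mean for 7 of 10 (0.04) and replicate 2 below it for 7 of 10 (-0.02). The same count was not made over all tested genes, so whether these shifts are particular to the family was not tested. Over the 7 libraries, Pearson correlations of log2 CPM between isotypes ran from 0.27, for Tuba1a with Tubb4b, to 0.95, for Tubb3 with Tubb4a. These are descriptions over libraries that share the genotype difference. The genes outside the family most like Tuba1a over the 7 libraries, among 9305 with a mean CPM of at least 10, were Trappc5 (r = 0.97), Otx1 (0.96), Gm6623 (0.95), Gm6682 (0.94) and Arl2bp (0.94), none of them called. Gm6682 is the pseudogene row named above, with which Tuba1a shares sequence. These r values are the highest of 9305 over only 7 libraries, where values this high can arise by selection alone.

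Other tubulins moved in both directions, and the counts of calls below stand beside 13.1% of all tested genes called higher and 15.8% lower. Tuba4a, the alpha isotype whose gene encodes no final tyrosine, had 15.6, 11.3 and 11.5 CPM in wild type and 22.8, 22.6, 23.0 and 27.0 CPM in the mutant. Its groups were well separated, with a log2 fold change of 0.90 ± 0.12 (SE; edgeR adjusted p = 9.65e-06). At 6.24 CPM per kilobase in wild type it was a small part of alpha tubulin mRNA. An annotated Tuba4a transcript overlaps Stk16 on the opposite strand over 47.7% of its stretches; Stk16 had 63.6 ± 4.56 CPM (SD, n = 3) and 61.0 ± 1.82 CPM (SD, n = 4) and was not called, and its part in the Tuba4a counts was not tested. Tubg1, the main gamma tubulin, which seeds new microtubules, fell from 44.7 ± 3.62 CPM in wild type to 34.2 ± 3.76 CPM in the mutant, with a log2 fold change of -0.38 ± 0.09 (SE; edgeR adjusted p = 0.00212). Of 10 other tubulin genes, 5 were tested, 1 rose, 1 fell and 3 were not called, with a median of -0.25. The falls numbered 2 without KAT7 mutant replicate 1 or replicate 4, with library size only, in limma-voom and with the replicate block. Of 8 genes of the gamma-tubulin ring complex, 1 rose: Tubgcp2 at 0.20 ± 0.07 (edgeR adjusted p = 0.0374). Its call was lost when replicate 1 or 2 of either genotype was left out (log2 fold change 0.15 to 0.18), in DESeq2 (0.20) and with library size only (0.19), and its adjusted p was 0.0178 to 0.200 over the alternatives.

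Genes that fold tubulin are the cofactors, the chaperonin CCT and prefoldin, and their counts stand beside 13.1% of all tested genes called higher and 15.8% lower. Of 7 tubulin cofactors, which assemble the dimer, 0 were called by edgeR, DESeq2 or limma-voom, and 1 had an unadjusted p under 0.05 by edgeR. That gene, Tbce, singled out after its values were seen, was at 0.18 ± 0.07 (SE). The number of cofactors called higher was 1 without KAT7 mutant replicate 1 and with no filter on low counts. The cofactor genes with the highest CPM, Tbcd and Tbcb, were at -0.08 ± 0.06 and -0.02 ± 0.06 (SE). Of 14 genes of CCT and its partner prefoldin, which fold the newly made chains, 2 rose, 1 fell and 11 were not called, with a median of 0.10. Cct6a and Tcp1, CCT subunits, rose by 0.16 ± 0.05 and 0.15 ± 0.05 (SE; edgeR adjusted p = 0.0197 and 0.0225), and the prefoldin subunit gene Pfdn1 stood at the threshold (-0.19 ± 0.07, 0.0498). These calls were fragile: the rises numbered 0 without replicate 1 of wild type or replicate 2 of the mutant. They numbered 1 without wild type replicate 2, wild type replicate 3 or mutant replicate 3, and 5 without mutant replicate 4. The fall of Pfdn1 was lost in 13 of the 16 alternatives, among them DESeq2, limma-voom, RLE factors and the fits without any 1 of the 7 libraries. Of both genes listed for the decay of tubulin messages, Scaper, a partner of TTC5, rose by 0.31 ± 0.06 (SE; edgeR adjusted p = 0.000289), and Ttc5 was not called (0.05 ± 0.07).

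Enzymes that modify tubulin included larger changes. Ttll1, the catalytic part of a polyglutamylase, rose from 99.7 ± 5.63 CPM in wild type to 136 ± 6.17 CPM in the mutant (log2 fold change 0.44 ± 0.06 SE, edgeR adjusted p = 6.31e-06). Svbp, the partner that vasohibins need to remove the terminal tyrosine, fell from 38.9 ± 4.32 to 27.1 ± 3.09 CPM (-0.52 ± 0.10, edgeR adjusted p = 0.000318), while Vash1 and Vash2 were not called, at 0.10 ± 0.05 and 0.04 ± 0.05 (SE). Sirt2, a deacetylase, and Atat1, the acetyltransferase of alpha tubulin, fell by 0.21 and 0.15 on the log2 scale. Both calls were lost without wild type replicate 3, where the values were -0.16 and -0.13. Of 21 genes on this list 16 were tested, 1 rose, 3 fell and 12 were not called, and the median was 0.02. Among all tested genes 13.1% were called higher and 15.8% lower. The genes Vash1 and Vash2 are named as the partners of Svbp, after their values were seen.

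Microtubule-associated proteins were called in both directions: of 22 genes 21 were tested, 8 rose, 2 fell and 11 were not called, with a median of 0.04. Over all tested genes 13.1% were called higher and 15.8% lower, and 23.6% and 12.6% among those of at least 100 CPM. Map6, which stabilises microtubules, fell from 230.5 ± 3.29 to 177 ± 4.04 CPM (-0.38 ± 0.05, edgeR adjusted p = 3.17e-06), and Map1a fell by 0.32 ± 0.06 on the log2 scale (edgeR adjusted p = 0.00064). Both falls were called in each of the 16 alternatives. Several rises depended on single libraries. Camsap2, which caps minus ends, rose by 0.20 ± 0.05 (SE) and was called in all 16 alternatives. Dclk1 and Dclk2, kinases related to doublecortin, were at 0.32 ± 0.11 and 0.22 ± 0.08, and Map7d2 at 0.27 ± 0.08 (SE). Dclk1 lost its call when wild type replicate 2 (0.21) or mutant replicate 4 (0.25) was left out, and Map7d2 when wild type replicate 2 (0.25) or 3 (0.26) was. Dclk2 lost it when any 1 library except mutant replicate 2 was left out (0.16 to 0.25). Over all 16 alternatives, other scalings, filters and methods included, Dclk2 lost its call in 13, Dclk1 in 5 and Map7d2 in 3. The number of rises was 3 with wild type replicate 2 or 3 left out, 4 with mutant replicate 1 or 4 left out, and 5 with wild type replicate 1 left out.

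**Figure D5:**
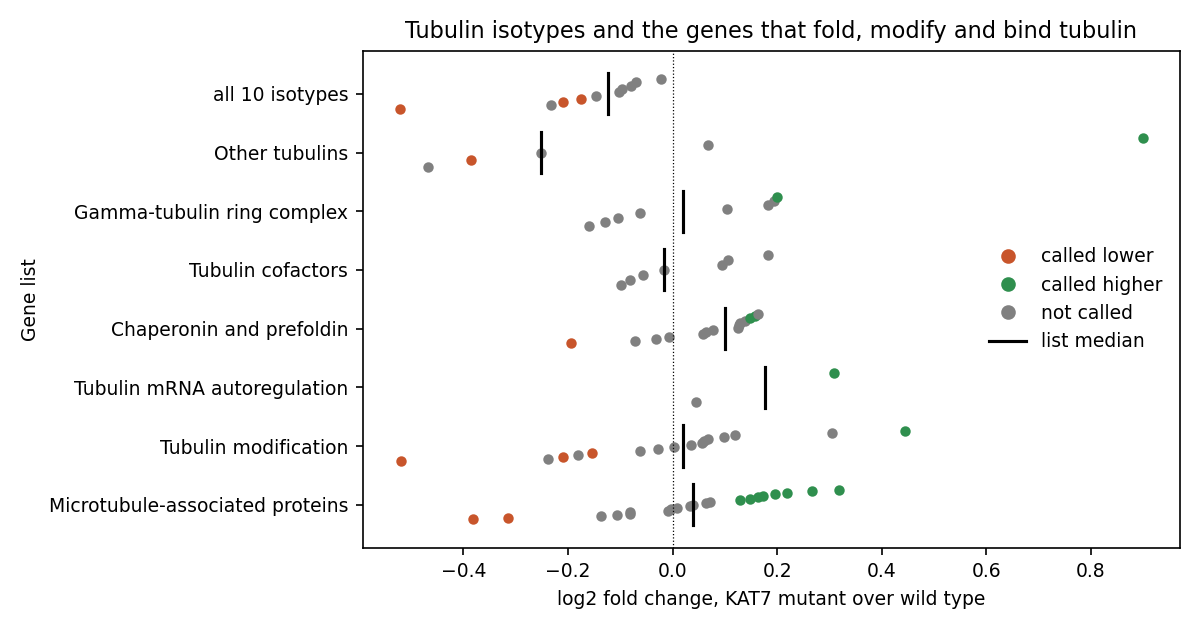
Log2 fold change of KAT7 mutant over wild type (horizontal axis) of each tested gene, by list (vertical axis), with the list median as a black line and the call in color. The isotypes lie to the left of 0 with a median of -0.12, and the medians of the lists of folding, modifying and microtubule-associated proteins lie between -0.02 and 0.10.

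Markers of several other cell types moved with genotype in these libraries, and their part in the tubulin values was not tested. Their counts of calls stand beside 15.8% of all tested genes called lower and 13.1% higher. Radial glia markers fell in 5 of 7 tested and rose in 0, with summed levels of 240.1 to 258 CPM in wild type and 176 to 215 CPM in the mutant. Cycling cell markers fell in 1 of 6 (104 to 111 and 86.6 to 106 CPM), close to the share of all tested genes. Intermediate progenitor markers fell in 2 of 3 (168 to 195 and 126 to 140.2 CPM). Interneuron markers rose in 4 of 6 (181 to 269 and 251 to 347 CPM). Oligodendrocyte lineage markers rose in 4 of 4 (6.45 to 9.38 and 14.0 to 28.4 CPM). Microglia markers rose in 3 of 5 (13.3 to 17.4 and 22.6 to 30.2 CPM). Of 4 astrocyte markers 2 were tested and 1 fell (7.69 to 13.4 and 3.39 to 7.56 CPM), and Aqp4 had 0 counts in 2 mutant libraries. Endothelial markers were not called in 2 tested of 4 (3.68 to 5.49 and 4.49 to 6.31 CPM), with Cldn5 at 0 or 1 count in every library. Of 5 blood genes 4 were found and none called (22.2 to 129 and 52.5 to 162 CPM).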

How the data were processed

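The authors deposited whole-number read counts per gene for 7 libraries, with Entrez identifiers and gene lengths. Counting used featureCounts and assembly mm9, per the submitters' processing notes; which aligner, annotation, strand setting and read length were used is not given in the sources used here. Symbols came from an NCBI table of GRCm38.p6 (24176 of 26286 identifiers matched), used for names only, and sequences from GENCODE M21; some sequences are not reported here. Genes were filtered with filterByExpr (minimum count 10), scaled by TMM and tested in edgeR (4.0.16, under R 4.3.3) by its quasi-likelihood test (two-sided, genotype as the only term, Benjamini-Hochberg over 13681 genes, threshold 0.05). The SE is the fold change over the root of F. CPM are counts over TMM-adjusted totals; levels per length divide CPM by the deposited length in kilobases, so they depend on that length and on how shared reads were counted.

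The fit was tested on simulated data. Alternatives were RLE, upper-quartile or no factors, no filter, a filter at 1 CPM in 3 libraries, limma-voom (3.58.1), DESeq2 (1.42.0), a replicate block, each library left out, a threshold of 0.01 and summed isotypes. Members and lists were chosen with earlier results of these data known. Named genes were all 10 isotypes, Kat7, up to 4 called genes per direction in each list (the 2 most abundant where none was called) and the 5 most like Tuba1a; others are marked.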

Additional observations from a re-analysis of the deposited data

How the results depend on the processing

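The isotypes called lower numbered 3 under every scaling factor, both other filters, DESeq2 and limma-voom, and were Tubb3, Tubb4a and Tubb4b each time. Leaving out 1 library gave 2 to 4 (0 higher), and a threshold of 0.01 left 2. Summing near-identical isotypes, with or without pseudogene rows, left 3. Tuba1a ran from -0.043 to 0.0085 with 1 library left out. Over all genes, a threshold of 0.01 left 1034 of the 1793 calls higher in KAT7 mutant; the construction of the stricter threshold accounts for this. The beta pool log2 ratio was -0.17 to -0.12 and the alpha pool ratio -0.048 to 0.0039 with 1 library left out. With the replicate number as a block, 3 isotypes were again called lower, chaperonin and prefoldin rises went from 2 to 5 and rises of microtubule-associated proteins from 8 to 5. Same-numbered libraries did not deviate together (r = 0.018, 0.012 and -0.029), and 0 of 3 wild type libraries correlated best with their own number. With 3 such pairs this check is weak, and whether libraries shared a litter, preparation or run was not tested. With 3 and 4 mice, differences near the SE of about 0.05 on the log2 scale are not resolved, and for Tuba1 and Tubb2 genes shared sequence also limits what a count means.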
